A study of Homo sapiens with 12 samples.

Results

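Metallothioneins are small cysteine-rich proteins that bind zinc and copper and buffer their free concentration in the cell. Their genes are switched on by zinc through MTF1, a zinc finger transcription factor that binds short metal response elements upstream of the genes, and glucocorticoids and oxidative stress also induce them. The genes described here are 6 metallothionein genes, MT2A, MT1X, MT1E, MT1F, MT1G and MT1M, together with MTF1. They were chosen by name, and all 7 were among the 22784 gene symbols in the expression table.

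The cells were SK-UT-1, an established cell line from a human uterine leiomyosarcoma, a malignant tumour of smooth muscle. Each treatment lasted 48 h. The groups received vehicle (DMSO), JQ1 at 5 µM or I-BET-762 at 5 µM, and total RNA was then sequenced from strand-specific libraries. JQ1 and I-BET-762 are both triazolodiazepines that fill the acetyl-lysine pocket of the bromodomains of BET proteins, which read acetylated histones, and JQ1 carries a thiophene where I-BET-762 carries a benzene ring fused to the diazepine. The libraries analysed here were 3 of 4 labelled DMSO libraries, 4 JQ1 libraries and 3 of 4 labelled I-BET-762 libraries. No source says that the libraries came from separate cultures, so p-values measure the spread between these samples, which may be technical.

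Each library held 35564586 to 39658989 reads on genes, and values are given as normalized counts, meaning reads divided by a scaling factor per library so that libraries can be compared. Groups were compared with limma across 14839 genes that had a normalized count of at least 10 in at least 3 libraries. A gene was called changed when its Benjamini-Hochberg adjusted p was under 0.05 and its fold change over 1.5. Smooth muscle markers were checked against the label. Of 10 listed, 9 had values, ACTA2, TAGLN, CALD1 and DES were measured in DMSO, and MYOCD and ACTG2 had at most 3 reads in every library. HEXIM1, a widely used readout of BET inhibition, rose by 1.53 on the log2 scale with JQ1 and by 1.05 with I-BET-762. MYC, read beside it, rose by 1.002 with JQ1 and stood at 0.54, under 1.5-fold, in I-BET-762. The rise of MYC is not taken as a sign that the inhibition worked. JQ1 replicate 18 stood apart from its group, since its chi-square (averaged over genes) was 20.6 to 22.1 against the other JQ1 libraries, where the other JQ1 pairs had 5.38 to 15.3. Without it, MT2A stood at 2.01 and the same number of the 7 genes, 5, was called with JQ1.

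The 6 metallothionein genes lie in 1 cluster on chromosome 16 (hg38, Gencode V44), which runs from MT4 at 56565073 to the end of MT1X at 56684196. This span of 119.1 kb holds 16 metallothionein symbols, of which 11 are protein coding and the others are pseudogenes. MT2A (ENSG00000125148) is a gene of 3 exons at chr16:56608584-56609497 on the plus strand. MT1E (ENSG00000169715, chr16:56625475-56627112), MT1M (ENSG00000205364, chr16:56632659-56633981), MT1F (ENSG00000198417, chr16:56657731-56660698) and MT1X (ENSG00000187193, chr16:56682470-56684196) are read from the same strand. MT1G (ENSG00000125144, chr16:56666730-56668065) is read from the minus strand. MTF1 (ENSG00000188786) lies apart from them at chr1:37809574-37859592 on the minus strand, and its main transcript has 11 exons.

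The upstream sequences of MT2A, MT1X and MT1H are shown because the first pair had the most reads and the largest number of reads gained among the 7 genes, while MT1H, a neighbour in the cluster, was nearly silent. Each is the 250 bases before the gene's start on its own strand, from the RefSeq promoter table (GRCh38.p14), at chr16:56608334-56608583 for MT2A, chr16:56682220-56682469 for MT1X and chr16:56669564-56669813 for MT1H. Capitals mark the core of the metal response element, searched on both strands as TGCACNC or TGCGCNC, where N is any base.
MT2A: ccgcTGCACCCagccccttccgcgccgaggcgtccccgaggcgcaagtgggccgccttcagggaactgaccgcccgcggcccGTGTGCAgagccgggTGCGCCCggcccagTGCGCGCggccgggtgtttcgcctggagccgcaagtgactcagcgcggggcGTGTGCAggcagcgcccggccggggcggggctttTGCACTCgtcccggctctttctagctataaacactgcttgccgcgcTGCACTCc
MT1X: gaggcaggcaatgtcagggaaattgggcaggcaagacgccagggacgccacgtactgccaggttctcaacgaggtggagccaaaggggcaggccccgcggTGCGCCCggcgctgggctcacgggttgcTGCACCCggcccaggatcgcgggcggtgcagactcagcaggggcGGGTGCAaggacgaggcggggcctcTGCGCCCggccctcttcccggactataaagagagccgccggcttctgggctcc
MT1H: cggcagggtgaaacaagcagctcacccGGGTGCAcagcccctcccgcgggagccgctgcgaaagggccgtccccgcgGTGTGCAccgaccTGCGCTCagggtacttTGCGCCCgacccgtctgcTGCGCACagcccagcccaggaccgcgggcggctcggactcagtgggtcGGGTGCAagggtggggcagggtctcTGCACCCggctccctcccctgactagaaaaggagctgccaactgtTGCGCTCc

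The MT2A window held 7 matches, the MT1X window 4 and the MT1H window 8, and no 2 of them overlapped within a window. Over the 35116 promoters of the table, 24.8% held at least 1 match in the same 250 bases, 1.58% held at least 3 and 0.12% held at least 5. The match nearest the gene began 8 bases before the start in both MT2A and MT1H, and 53 bases before it in MT1X. The MTF1 window held 0 matches. A match says only that these letters are there, and the MT1H window carried the most matches beside almost no reads. Of the 7 genes, MT2A, MT1X and MTF1 had an entry in the promoter table, and MT1E, MT1F, MT1G and MT1M did not.

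The question addressed by the comparison with DMSO was how BET inhibition changed the transcripts of these genes. With JQ1, MT2A and MT1X rose about as strongly as each other, to 3.99 and 4.09 times their DMSO means, MT1M and MTF1 rose less, and MT1F fell. With I-BET-762, MT2A, MT1X and MT1M rose by smaller amounts, and the values of MT1F and MTF1 had the same sign as with JQ1 but stayed under 1.5-fold. MT1E and MT1G were at or under the detection floor in every group. Of the 7 genes, 5 passed the filter on low values and were tested. JQ1 led to a call in all 5, against 36.1% of all genes tested (13.3% up and 22.8% down), and I-BET-762 in 3 of the 5, against 26.9% (8.96% up and 17.9% down). At an adjusted p under 0.05 with any fold, all 5 passed in each comparison, against 71.7% of all genes in the first and 61.1% in the second. For MT1F with I-BET-762 this did not hold without DMSO replicate 13 or 14 or any 1 of the I-BET-762 replicates, as described with its values. Nor did it hold when all genes with a value were tested.

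MT2A, which encodes the most widely expressed human metallothionein, had 13320, 13617 and 12203 normalized counts in DMSO. It had 51990, 50565, 57630 and 48197 in JQ1, and 36858, 33924 and 33594 in I-BET-762. The 3 groups did not overlap, with I-BET-762 between DMSO and JQ1. Its log2 fold change was 1.996 ± 0.063 (SE) with JQ1 (limma, Benjamini-Hochberg adjusted p = 3.37e-13) and 1.42 ± 0.07 with I-BET-762 (adjusted p = 1.13e-10, limma).

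MT1X, a metallothionein gene at the far end of the cluster, had 1584, 1624 and 1415 normalized counts in DMSO. It had 5539, 6676, 6701 and 6277 in JQ1, and 4415, 4012 and 4311 in I-BET-762. Again every JQ1 library lay above every I-BET-762 library, and every I-BET-762 library above DMSO. JQ1 gave a log2 fold change of 2.03 ± 0.07 and I-BET-762 one of 1.46 ± 0.07, with limma adjusted p of 5.94e-13 and 1.74e-10. Of the 75-base stretches of MT1X exons, 14.7% also occurred elsewhere, mostly in an overlapping long non-coding RNA gene. A part of the MT1X reads could therefore be assigned to either gene. MT2A and MT1F shared none of their 75-base stretches with another gene.

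MT1M, which lies between MT1E and MT1A, had 1012, 1110 and 950.1 normalized counts in DMSO. In JQ1 it had 1727, 2065, 1844 and 1811, and in I-BET-762 it had 1832, 1510 and 1351. Both treated groups lay above DMSO, but they overlapped each other, since I-BET-762 replicate 21 lay inside the JQ1 range. The log2 fold change was 0.86 ± 0.09 with JQ1 (limma, adjusted p = 3.36e-07) and 0.60 ± 0.10 with I-BET-762 (adjusted p = 5.61e-05, limma). The I-BET-762 call was close to the fold threshold, at 1.52 times, and was lost without I-BET-762 replicate 21 (log2 fold change 0.48) and without DMSO replicate 15 (0.55).

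MT1F moved the other way. It had 219.9, 244.1 and 189.3 normalized counts in DMSO, then 127.5, 152.3, 134.1 and 143.0 in JQ1, and 187.0, 171.4 and 170.3 in I-BET-762. All JQ1 libraries lay under the lowest I-BET-762 library, and all I-BET-762 libraries lay under the lowest DMSO library, by a narrow margin. The log2 fold change was -0.64 ± 0.11 with JQ1 (limma, adjusted p = 0.000103), which was called. With I-BET-762 it was -0.30 ± 0.12 (limma, adjusted p = 0.0436), a difference under 1.5-fold. That adjusted p rose to 0.0972 and 0.194 without DMSO replicates 13 and 14, and to 0.0509, 0.11 and 0.111 without I-BET-762 replicates 21, 22 and 23 in turn. When all genes with a value were tested, the limma adjusted p was 0.0717. Without DMSO replicate 14, its highest DMSO library, the JQ1 value was -0.55 and no longer passed the fold threshold.

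MT1E had 3, 1 and 0 reads in DMSO, 0 in each JQ1 library, and 0, 0 and 1 in I-BET-762. MT1G had a single read, in I-BET-762 replicate 22. The limit that 0 reads allow is 3 reads, or between 2.73 and 3.30 normalized counts, for counting error only. No difference between groups in these genes was detectable at this depth, and no fold change is given for them.

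MTF1, the metal-sensing transcription factor, had 1410, 1346 and 1371 normalized counts in DMSO. It had 2011, 2079, 2017 and 2189 in JQ1, and 1956, 2018 and 2045 in I-BET-762. The treated groups lay above DMSO and overlapped each other. The log2 fold change was 0.59 ± 0.05 with JQ1 (limma, adjusted p = 2.35e-08), and 0.54 ± 0.05 with I-BET-762 (adjusted p = 2.69e-07, limma), the first just over and the second just under the fold threshold. The JQ1 call was lost without DMSO replicate 14 (0.58) or without JQ1 replicate 20 (0.57). These are transcript levels, and neither the MTF1 protein nor zinc was measured in the data analysed here.

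**Figure D1:**
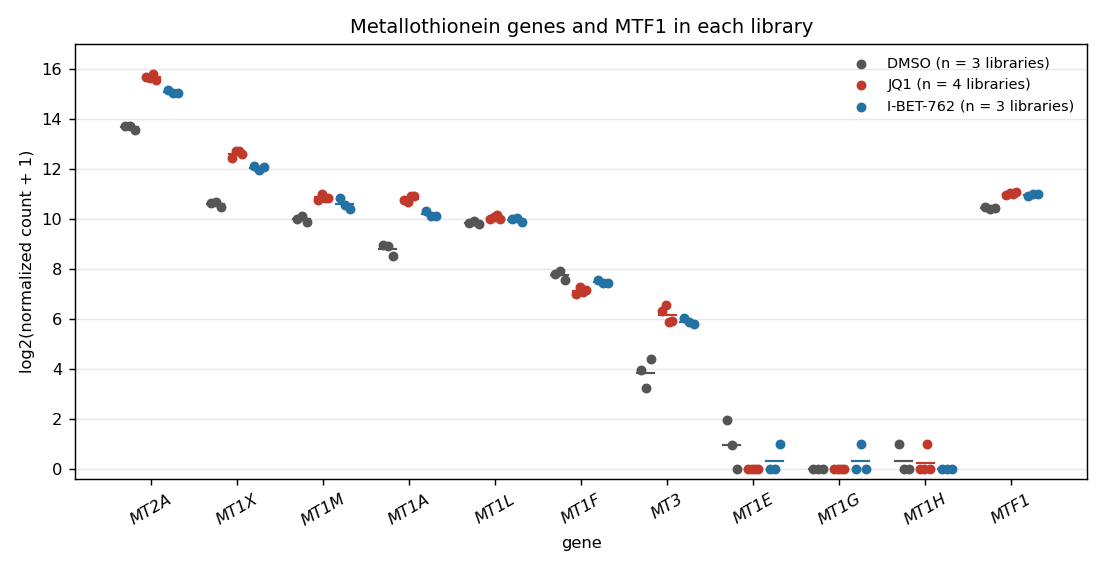
Level of each metallothionein gene and of MTF1 in every library, as log2 of the normalized count plus 1 on the vertical axis. Each point is 1 library (3 DMSO, 4 JQ1 and 3 I-BET-762) and the short lines are group means. MT2A, MT1X and MT1A form 3 separate steps from DMSO to I-BET-762 to JQ1, MT1F steps down, and MT1E, MT1G and MT1H lie at or near 0.

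Levels of different genes can be compared only per length of transcript. Per kb of annotated exon sequence, MT2A was the highest of the 7 genes in every group, with a mean of 14274 normalized counts per kb in DMSO, 56997 in JQ1 and 38066 in I-BET-762. MT1M followed in DMSO with 2004 per kb, then MT1X with 892.5, MTF1 with 172.2 and MT1F with 117.6. In JQ1 the means of MT1X and MT1M per kb were 3647 and 3644, a difference far within the spread between libraries. The order of that pair depended on which length was used. Per kb of the main transcript alone, MT1X stood above MT1M in DMSO, at 3815 against 2573. The order of MTF1 and MT1F turned as well. On that length MT1F stood above MTF1 in every group, at 512.3 against 173.3 in DMSO.

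JQ1 and I-BET-762 were used at the same concentration and time, and their values were compared directly, in 1 pair of compounds. The same concentration need not give the same degree of BET inhibition. HEXIM1, the readout of that inhibition, was itself 0.48 higher on the log2 scale in JQ1 (limma, adjusted p = 6.18e-06). Whether the degree of inhibition differed was not tested. MT2A was 0.58 ± 0.06 higher on the log2 scale in JQ1 than in I-BET-762 (95% interval 0.45 to 0.71; limma, adjusted p = 1.19e-05), and MT1X was 0.57 ± 0.07 higher (limma, adjusted p = 2.84e-05). MT1M was 0.26 higher (limma, adjusted p = 0.0432) and MT1F was lower, at -0.34 (limma, adjusted p = 0.0362). So 4 of the 5 tested genes had an adjusted p under 0.05, against 27.3% of all genes. MT2A and MT1X stayed under it whichever library was left out, but MT1M and MT1F did not. Without I-BET-762 replicate 22 or 23 or JQ1 replicate 19, both lost it and the count was 2, with an adjusted p in limma of up to 0.251 for MT1M (without I-BET-762 replicate 23) and, without I-BET-762 replicate 21, of 0.138 for MT1F. None of the 5 passed the fold threshold as well, where 5.31% of all genes did (1.73% higher and 3.59% lower in JQ1), and MT2A lay just under it. Without I-BET-762 replicate 21, MT2A (0.62) and MT1X (0.59) both passed it. For MTF1 the difference was 0.05, with a 95% interval of -0.06 to 0.15 (limma, adjusted p = 0.514), and under the rescaling to equal totals its sign turned, to -0.042.

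**Figure D2:**
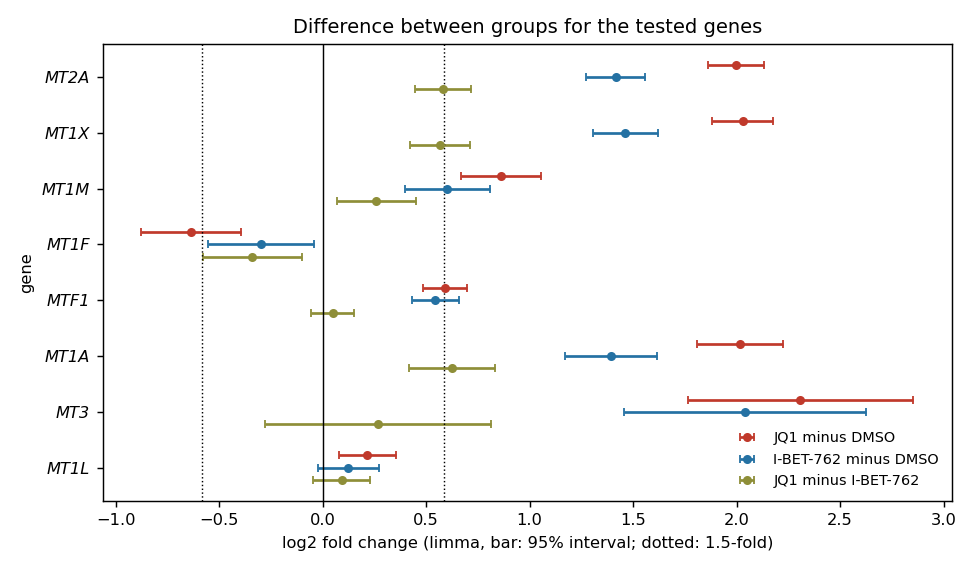
Log2 fold changes from limma for the 5 tested genes and for MT1A, MT3 and MT1L, with 95% intervals as bars. Colours separate JQ1 minus DMSO, I-BET-762 minus DMSO and JQ1 minus I-BET-762, and dotted lines mark 1.5-fold. For MT2A, MT1X and MT1A the JQ1 and I-BET-762 intervals do not touch, and for MTF1 they overlap.

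In MT2A, MT1X, MT1M, MT1F and MTF1, the treated libraries and the DMSO libraries did not overlap with either inhibitor. Over all genes tested, 68.4% had groups that did not overlap with JQ1 and 71.0% with I-BET-762, so this separation was common in these data. Between the inhibitors, 3 of the 5 genes did not overlap, against 33.8% of all genes. The 4 tested metallothionein genes had a median log2 fold change of 1.43 with JQ1 and 1.01 with I-BET-762, beside 0.0076 and -6e-04 over all genes tested. When the libraries were instead rescaled to equal totals, the median of all genes shifted to -0.18 with JQ1 and -0.10 with I-BET-762. MT2A then stood at 1.81 and 1.32, and the calls of MTF1 with JQ1 (0.41) and of MT1M with I-BET-762 (0.51) were lost.

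Other metallothionein symbols were read in the same way. Of 15 listed, 7 had values and 4 were tested. MT1A and MT3 were called in both treated groups, or 50% of those tested, beside 36.1% of all genes with JQ1 and 26.9% with I-BET-762. MT1A, a coding gene of the cluster, had 364.0 to 501.7 normalized counts in DMSO, 1620 to 1942 in JQ1 and 1107 to 1272 in I-BET-762. Its log2 fold changes of 2.02 ± 0.10 and 1.39 ± 0.11 were close to those of MT2A. It was also the 1 gene of the 4 called between the inhibitors, at 0.62 ± 0.10 (limma, adjusted p = 0.00029), where 5.31% of all genes were called. MT3, known as the metallothionein of the brain, was scarce, at 8.32 to 20.0 normalized counts in DMSO, 58.03 to 92.5 in JQ1 and 54.1 to 64.0 in I-BET-762. It rose by 2.31 ± 0.26 with JQ1 and by 2.04 ± 0.27 with I-BET-762 on the log2 scale, the widest errors of the genes called in the cluster. Its DMSO libraries alone did not meet the filter, a normalized count of at least 10 in at least 3 libraries. MT3 therefore entered the test only through the treated libraries, where it was higher, and its call is to be read with that limit.

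The pseudogenes MT1L and MT1DP were tested and not called. MT1L had means of 917.5 normalized counts in DMSO, 1066 in JQ1 and 999.7 in I-BET-762, with a log2 fold change of 0.22 (limma, adjusted p = 0.00739) with JQ1 and 0.12 (limma, adjusted p = 0.136) with I-BET-762. All of its 75-base stretches also lie in an overlapping long non-coding RNA gene, so its reads cannot be told by sequence from those of that gene. MT1DP had 2.91 to 13.2 normalized counts across all libraries, and all of its 75-base stretches also lie in transcripts of another gene. MT1H and MT1P3 had at most 2 reads in any library, and MT1JP had 2 to 11.

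Summed over all metallothionein symbols with values, the DMSO libraries held 17221 ± 1056 normalized counts (SD, n = 3), the JQ1 libraries 63350 ± 4266 (n = 4) and the I-BET-762 libraries 43025 ± 2302 (n = 3). The means of the treated groups were 3.68 and 2.5 times that of DMSO. In reads before scaling, a library held 17620 to 19535 in DMSO, 56635 to 69408 in JQ1 and 41735 to 46421 in I-BET-762. MT2A made up most of the sum in every library, from 75.4% to 76.1% in DMSO, from 81.1% to 83.5% in JQ1 and from 80.7% to 81.1% in I-BET-762. By counts, not adjusted for transcript length, MT1X was the next, at 8.83% to 10.7% over all libraries.

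**Figure D3:**
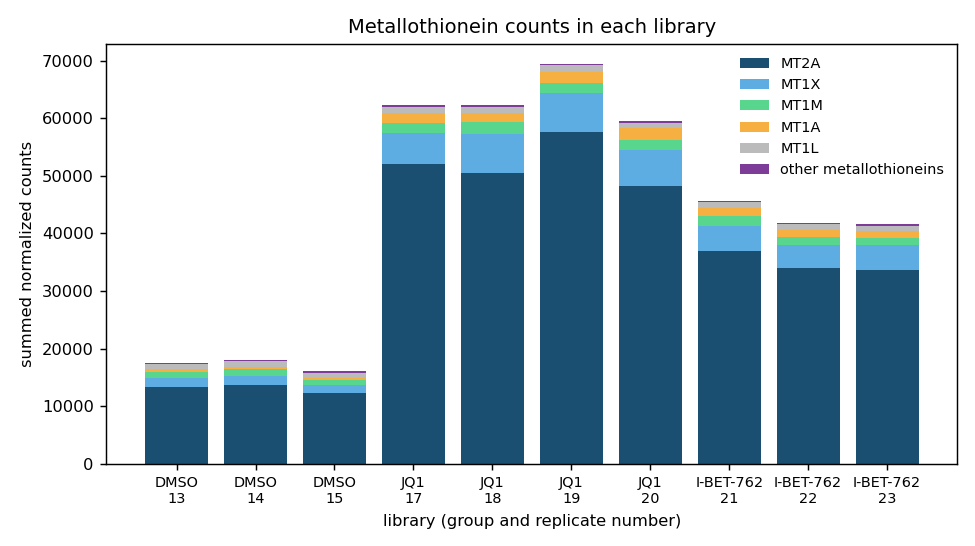
Summed normalized counts of the metallothionein genes in each library on the vertical axis. MT2A, MT1X, MT1M, MT1A and MT1L each have a coloured segment, and the other metallothioneins are pooled in a further segment. The DMSO bars reach 16035 to 18060, the JQ1 bars 59462 to 69439 and the I-BET-762 bars 41555 to 45677, and MT2A is the largest segment in all of them.

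The genes around the cluster were described to place these values in their region. Of 14 listed neighbours on either side, 12 were tested. NLRC5, a regulator of MHC class I genes that lies 380.9 kb from the MT2A start, was called down with both inhibitors, at -1.25 ± 0.10 and -0.99 ± 0.10, and the other 11 were not called, so 8.33% of those tested were called in each comparison beside 36.1% and 26.9% of all genes. The nearest tested neighbours were BBS2, a cilium gene, at -0.0029 in JQ1 and 0.18 in I-BET-762, and NUP93, a nuclear pore gene, at 0.10 and 0.08. The median log2 fold change of the 12 was 0.04 after JQ1 and 0.03 after I-BET-762 treatment.

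**Figure D4:**
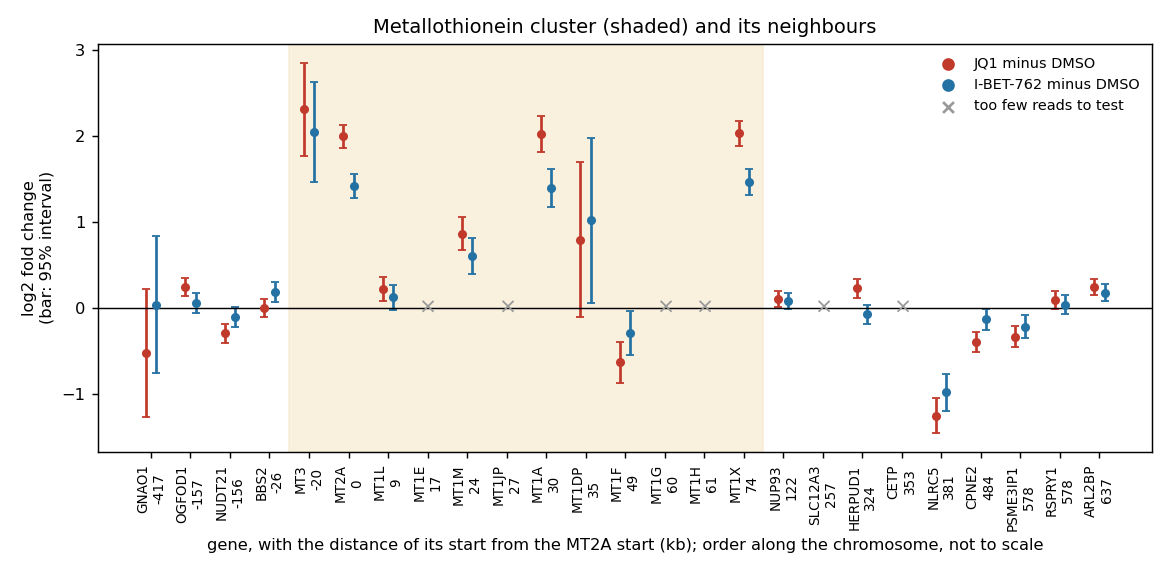
Log2 fold changes of metallothionein genes (shaded) and 13 of their neighbours in their order along the chromosome, with 95% intervals as bars. Under each name is the distance of its start from the MT2A start in kb, spacing is not to scale, and crosses on the 0 line mark genes with too few reads to test. Inside the cluster, rises of about 2 in MT3, MT2A, MT1A and MT1X with JQ1 stand beside MT1L near 0 and MT1F under 0.

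Zinc moves through the cell by 2 transporter families, SLC30 exporters, which carry it out of the cytosol, and SLC39 importers, which bring it in. Of 24 listed transporters, 18 were tested. JQ1 changed 5 of them, against 36.1% of all genes, and I-BET-762 changed 4, against 26.9%. SLC30A1, the exporter at the plasma membrane and a textbook target of MTF1, had 3216 to 3602 normalized counts in DMSO, 3318 to 3711 in JQ1 and 3308 to 3709 in I-BET-762. The 3 ranges overlapped, and the log2 fold change was 0.04 with JQ1 (95% interval -0.08 to 0.16; limma, adjusted p = 0.563) and 0.04 with I-BET-762 (interval -0.10 to 0.17; limma, adjusted p = 0.64). Its upstream 250 bases held 1 match to the metal response element core.

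SLC30A3, an exporter known for loading zinc into synaptic vesicles, was the 1 transporter called up. It had 85.2 to 107.4 normalized counts in DMSO, 214.3 to 263.7 in JQ1 and 197.9 to 210.6 in I-BET-762, which gave changes of 1.32 ± 0.11 and 1.09 ± 0.12 on the log2 scale. The importers called were all down. SLC39A10, a plasma membrane importer, had 5908 to 6388 normalized counts in DMSO, 2389 to 2918 in JQ1 and 3046 to 3170 in I-BET-762, changes of -1.26 ± 0.06 and -0.99 ± 0.07. SLC39A8, an importer of zinc and manganese, changed by -0.97 ± 0.06 and -0.89 ± 0.07, and SLC39A11 by -0.91 ± 0.17 and -0.77 ± 0.18. SLC39A1 was called with JQ1 alone, at -0.78 ± 0.23, and the difference between the inhibitors did not pass the test (limma, adjusted p = 0.198). The median log2 fold change was 0.23 over the 8 tested SLC30 genes and -0.37 over the 10 tested SLC39 genes with JQ1, and 0.26 and -0.33 in the I-BET-762 group.

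**Figure D5:**
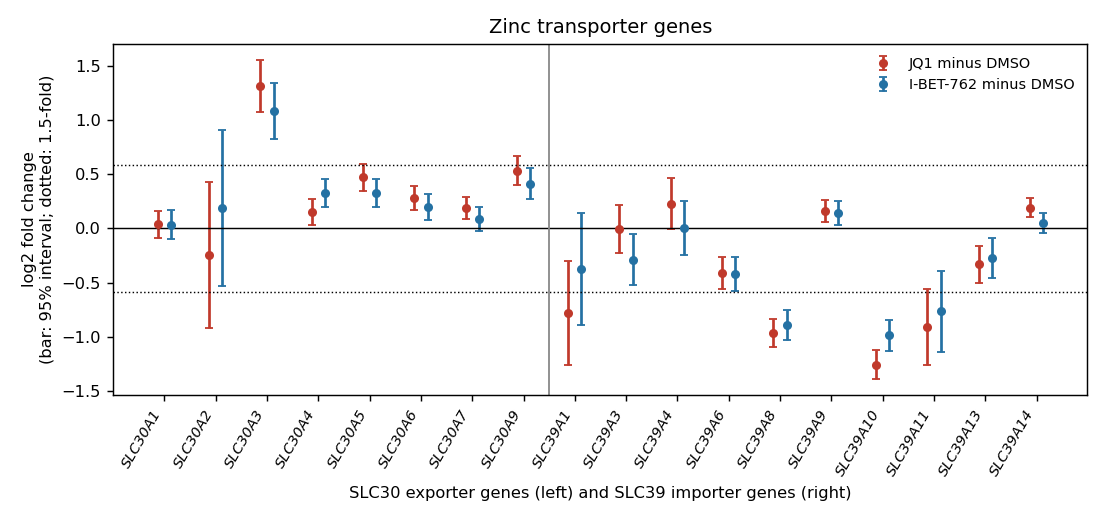
Log2 fold changes of the 18 tested zinc transporter genes, exporters on the left and importers on the right, with 95% intervals as bars and dotted lines at 1.5-fold. SLC30A3 lies above the upper line with both inhibitors, SLC39A8, SLC39A10 and SLC39A11 lie under the lower one, and SLC30A1 lies on 0.

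Copper is the other metal that metallothioneins hold. Of 13 listed genes of copper uptake, export and delivery, all tested, 2 were called up with JQ1 and 1 with I-BET-762, or 15.4% and 7.69% of the list beside 36.1% and 26.9% of all genes. COX19, an assembly factor of cytochrome oxidase, rose by 0.96 ± 0.06 and 0.63 ± 0.06 on the log2 scale. SCO2, which delivers copper to the same enzyme, rose by 0.62 ± 0.07 with JQ1 and stood at 0.38 ± 0.07, under 1.5-fold, with I-BET-762. The median of the list was 0.19 and 0.13.

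MT2A is also a textbook glucocorticoid-induced gene. The glucocorticoid receptor, known targets and related genes that are neither were therefore read as a list of 11, of which 9 were tested. With JQ1, 1 was called up and 2 down, and with I-BET-762, 1 up and 3 down, or 33.3% and 44.4% of those tested beside 36.1% and 26.9% of all genes. Without JQ1 replicate 18 the JQ1 count was 4. FKBP5, a receptor co-chaperone, rose by 0.87 ± 0.05 and 0.60 ± 0.05. KLF9 fell by 1.04 and by 0.79, and TSC22D3, which encodes the anti-inflammatory protein GILZ, fell by 0.67 and by 0.70. SGK1, a kinase gene, fell by 0.60 with I-BET-762 and stood at -0.47 ± 0.05 with JQ1, under 1.5-fold, and the difference between the inhibitors did not pass the test (limma, adjusted p = 0.0596). NR3C1, the receptor itself, was lower with both, at -0.58 ± 0.06 and -0.43 ± 0.06 (limma, adjusted p = 1.44e-07 and 1.59e-05), under 1.5-fold in each case. The median of the list was -0.24 for JQ1 and -0.26 for I-BET-762.

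The genes with the profile most like that of MT2A were sought among all genes tested, by the root mean square difference of log2 values over the 10 libraries after subtracting each gene's DMSO mean. MT1X was the nearest, at 0.0917, followed by ATF3 at 0.0983 and BCYRN1 at 0.111. MT1A was 4th at 0.115, MT3 was 303rd and MT1M 976th. MT1F, which fell, ranked 11155th and MTF1 1726th. ATF3, a stress-induced transcription factor, had 181.2 to 209.2 normalized counts in DMSO, 678.9 to 807.6 in JQ1 and 465.2 to 522.5 in I-BET-762. BCYRN1, a small cytoplasmic RNA of the Alu family, had means of 197.4, 773.7 and 511.1, and its reads may belong in part to other Alu copies.

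Markers of cell types moved in the same libraries as the metallothionein genes. Of 7 tested smooth muscle markers, 6 were called down with each inhibitor, where 22.8% of all genes were called down with JQ1 and 17.9% with I-BET-762. The summed level of the 9 with values was 20502 to 21137 normalized counts in DMSO, 10662 to 11270 in JQ1 and 11822 to 12374 in I-BET-762. Of 4 tested epithelial markers, 4 were called down in JQ1 and 3 in I-BET-762. The summed level of the 5 with values was 1212 to 1271 normalized counts in DMSO, 511.2 to 602.3 in JQ1 and 496.9 to 544.4 in I-BET-762. Of the 3 leukocyte markers with values, PTPRC had at most 1 read in any library, and the sum was 17.7 to 37.0 normalized counts. The sum of 3 endothelial markers was 1.003 to 7.40. The part of these changes in the metallothionein values was not tested. In these bulk samples of an established cell line, fewer cells expressing a marker and less of its RNA per cell cannot be told apart.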

How the data were processed

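The labelled treatment set each SK-UT-1 library's group. Replicate 16 of DMSO and replicate 24 of I-BET-762 were not analysed here. The authors checked reads with FastQC 0.73, trimmed them (Trimmomatic), mapped them with HISAT2 2.2.1 to hg38, counted them on Gencode genes with featureCounts 2.0.3, normalized the counts with DESeq2 and left out outlier samples. The handling of strand and of reads with several matches is not given in the sources used here. Each deposited value is the log2 of 1 plus a normalized count. Undoing the log2 gave whole reads (within 0.02) for 99.74% to 99.77% of values per library, and hence the depth. In 12 pairs of replicates the chi-square per gene was 2.77 to 22.1, so no pair agreed within sampling noise.

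A single limma 3.58.1 model (R 4.3.3) was fitted to the log2 values of all 10 libraries, with an intensity trend, and p-values were adjusted by Benjamini-Hochberg over 14839 genes in each contrast. The fit was also run on simulated counts with a fixed spread and fewer changed genes than here, which does not test the calls made on these libraries. Fold changes are on the log2(value + 1) scale, which understates those of low genes. Tables and figures were made with Python 3.11.15, pandas 2.3.3 and matplotlib 3.10.9. Exon stretches of 75 bases were looked up in 194 primary and 261 alternate sequences of hg38, and exon lengths came from Gencode V44, a later release than the one the authors used. The genes named are the 7 chosen ones, the other metallothioneins with values, HEXIM1, MYC, SLC30A1, NR3C1, list members called with both inhibitors (at most 4 per list) and the 3 genes most like MT2A. SCO2, SGK1, SLC39A1, BBS2 and NUP93 were named after their values were seen. Of the 14 listed neighbours, 1 is not reported here by itself. The genes and lists were chosen with earlier results of these data known. The alternatives were pseudocounts of 0.5 and 5, other filters, scalings and fold thresholds, moderation without a trend, a fit of the compared groups alone, limma-voom on the recovered reads, and leaving out each library.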

Additional observations from a re-analysis of the deposited data

Results flagged for a closer look

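ATF3 and BCYRN1 are left out here, because they were picked for likeness to MT2A over the same libraries. Of the other genes whose values are given, the following differed between the inhibitors themselves. The test was limma's, of JQ1 minus I-BET-762 with a Benjamini-Hochberg adjusted p under 0.05, which marks their response as unequal in size. On the log2 scale the difference was 0.58 for MT2A, 0.57 for MT1X, 0.26 for MT1M, 0.62 for MT1A and -0.34 for MT1F. For MT1M and MT1F the adjusted p was close to the threshold and rose above it with some single libraries left out, reaching 0.251 and 0.138, and it was 0.0649 and 0.0635 when all genes with a value were tested. Among the genes read beside them it was 0.48 for HEXIM1, 0.46 for MYC, 0.34 for COX19, 0.24 for SCO2, 0.27 for FKBP5, -0.25 for KLF9, -0.27 for NLRC5 and -0.27 for SLC39A10. In these genes the JQ1 value lay farther from DMSO than the I-BET-762 value. BBS2, at -0.18, was the exception, with the I-BET-762 value farther from DMSO. Libraries were left out in turn only for MT2A, MT1X, MT1M and MT1F among these. Of all genes tested, 27.3% differed between the inhibitors at this threshold, and JQ1 led to more calls against DMSO than I-BET-762, 36.1% against 26.9%. In the only group of 4 libraries, JQ1, no gene considered here had a library beyond the limit of Dixon's test. Even so, JQ1 replicate 18 differed most from the others over all genes and had the highest SLC39A10 and the lowest SLC39A11 of its group.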

How the results depend on the processing

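The fold changes of the 5 tested genes and the counts of calls among them and among the zinc transporters were recomputed under 21 alternatives, and other values were not. Without JQ1 replicate 18, a setting chosen after seeing the data, the calls in 6 other lists were recounted, and the glucocorticoid list with JQ1 was the 1 that moved, from 3 to 4. MT2A and MT1X kept their direction and their call against DMSO in all 21 alternatives, with log2 fold changes of 1.81 to 2.03 and 1.84 to 2.09 with JQ1, and 1.32 to 1.45 and 1.37 to 1.503 with I-BET-762. Of the 5 genes called with JQ1, 2 passed a fold change over 2, and leaving out single libraries gave 3 to 5, with 3 without DMSO replicate 14, when MT1F and MTF1 fell under the fold threshold. With I-BET-762 the count was 3 as reported, 5 with no fold threshold and 2 to 3 with single libraries left out. Between the inhibitors it was 0 as reported, 4 with no fold threshold and 0 to 2 with single libraries left out, being 1 without JQ1 replicate 17, 18 or 20 and 2 without I-BET-762 replicate 21. The zinc transporter counts were 14 with JQ1 and 12 with I-BET-762 without a fold threshold, and 2 and 1 at a fold over 2. The difference of MTF1 between the inhibitors turned to -0.042 when libraries were rescaled to equal totals. Rescaling to equal upper quartiles ended the call of MTF1 with JQ1 (0.53) and of MT1M with I-BET-762 (0.57). Limma-voom changed no call among them. Where a count moved without a library, the cause was not tested. No paired analysis was possible because the replicate numbers in the labels, 13 to 24, are all different between groups. Depth limits MT1E, MT1G and MT1H, for which no level above 3 reads was seen.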
